A study of Pimephales promelas and Coturnix japonica and Xenopus laevis with 724 samples.

Results

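Embryos of the African clawed frog (Xenopus laevis) were sequenced as whole embryos at the early life stage after exposure to selenomethionine (seme in the labels) at a level labelled HIGH (5 libraries) or MED (5 libraries), or to the control treatment CTRL (5 libraries). All libraries of the deposited table for this species, stage and chemical were taken, 15 of the 724 libraries of the series. The whole series covers adults or early life stages of 6 vertebrate species and 8 chemicals of environmental concern. The controls carry dmso as their chemical. Whether the exposed embryos also received it is not given in the labels, and neither are the concentrations, the duration, the age of the embryos, or whether a library came from 1 embryo or a pool. No label says that the libraries of a level came from separate animals or exposures. The p-values therefore measure how far these libraries differ, and part of that may be technical.

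Selenomethionine is methionine with selenium in place of sulphur. The enzyme that charges the methionine transfer RNA accepts both, so the compound enters proteins wherever methionine does, and in egg-laying animals it is passed from the mother to the egg with the yolk proteins. Selenium released from it feeds the synthesis of selenoproteins such as the glutathione peroxidases and thioredoxin reductases, and an excess is known for deformities and oxidative stress in fish and amphibian embryos.

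The table gives whole-number read counts for 20716 identifiers that begin with s2f. None of the 20716 was found in the reference gene table used here, so no identifier could be given a gene name, a sequence or a position. Selenoproteins, methionine metabolism, stress genes and the markers of embryonic cell types could therefore not be looked up, and the embryo label was not checked against markers. Identifiers are named where they rank first or second by p among those that rose or fell at HIGH, and all others are called by direction and rank, riser 3 being the one with the next lowest p. The clawed frog is allotetraploid, and whether its duplicated gene copies are counted under 1 identifier is not given in the sources used here. In bulk embryos, fewer cells of a type and less RNA per cell cannot be told apart.

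Library totals ran from 11581236 to 18846368 counts with a median of 15075571, and 17562 to 18120 identifiers had at least 1 count in a library. HIGH libraries held 1.70e+07 ± 1.69e+06 counts (SD, n = 5) and CTRL libraries 1.36e+07 ± 1.20e+06 (SD, n = 5), a difference with an exact two-sided permutation p of 0.0159 and an adjusted p of 0.143 over 9 tests of library measures. None of the 9 tests reached an adjusted p under 0.05, which 1 measure alone could not reach, since the smallest p of 5 against 5 is 0.00794, or 0.0714 after adjustment over 9. The part of this difference in depth in the results below was not tested.

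The 3 libraries numbered 5, 1 of each level, stood apart from the other 12. On the first principal component of log2 CPM (normalised counts scaled to a common total), which held 37.0% of the variance, they lay between 43.8 and 52.7, and the other 12 between -43.8 and 3.69. The lowest of those 12 was MED 4. The 100 most counted identifiers took 32.4 to 34.6% of the counts in the libraries numbered 5 and 37.96 to 41.0% in the other 12. For 3413 of the 15767 identifiers tested (21.6%), all 3 libraries numbered 5 lay above or all lay below the other 12, against 16 to 221 identifiers for the numbers 1 to 4. In the other 7 clawed frog tables, the same share ran from 0.0531 to 11.8% over 34 replicate numbers, with a median of 0.299%. The 11.8% was number 1 of the table for the flame retardant hexabromocyclododecane, and the next highest share was 2.76%. The labels name no batch behind number 5, and what these libraries share was not tested. The second component (9.24% of the variance) put all 5 HIGH libraries, between 11.7 and 25.8, above the MED and CTRL libraries, between -17.1 and 1.63. The counts of calls between levels in edgeR are therefore given with and without these libraries.

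**Figure D1:**
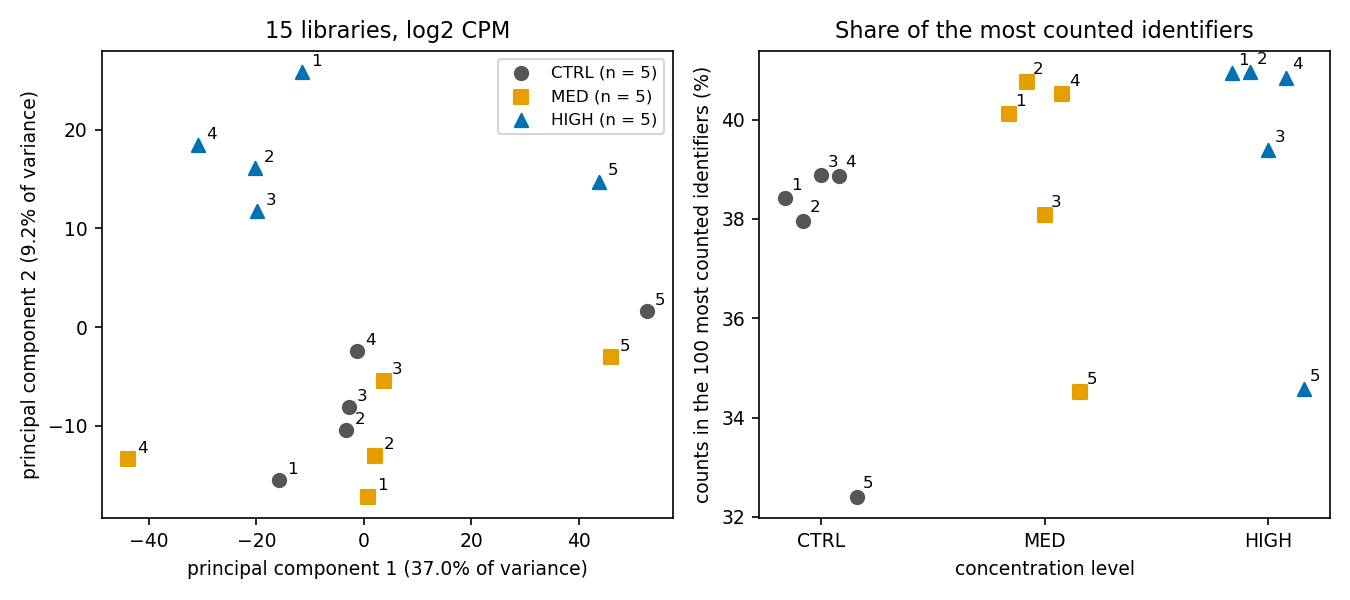
The left panel plots the 15 libraries on principal components 1 and 2 of log2 CPM, and the right panel the percent of each library's counts in its 100 most counted identifiers, with the replicate number beside each point. The libraries numbered 5 lie at 43.8 or more on component 1 and at 34.6% or less in the right panel, and the HIGH libraries lie at 11.7 or more on component 2.

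At HIGH, 12 identifiers rose (0.0761%) and 3 fell (0.0190%) against CTRL, 15 of 15767 tested (0.0951%) at an edgeR adjusted p under 0.05. The risers changed by 0.59 to 3.20 on the log2 scale with a median of 1.48, and the fallers by -0.62 to -2.54 with a median of -1.96. The 3.20 belongs to riser 4 and the -1.96 to faller 3, which passed the filter on low counts through only some levels, as described below. The largest change among the other risers was 2.44. The median over all identifiers tested was -0.0026. More than 2-fold changes were seen for 7 of the 12 risers and 2 of the 3 fallers, riser 4 and faller 3 among them. At an unadjusted p under 0.05, 1386 identifiers (8.79%) differed, 760 of them higher and 626 lower.

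The identifier s2f_0000000051 ranked first among those that rose. It stood at 6.36, 11.7, 10.02, 9.06 and 6.78 CPM in CTRL libraries 1 to 5, and at 26.99, 23.9, 29.6, 29.5 and 34.8 CPM in HIGH libraries 1 to 5. MED libraries 1 to 5 held 11.3, 14.2, 8.24, 9.19 and 9.67 CPM. Every HIGH library lay above every MED and CTRL library, while MED and CTRL overlapped. The log2 fold change at HIGH was 1.72 ± 0.18 (SE, n = 5 against 5), a 3.30-fold rise with an edgeR adjusted p of 0.000714, and it stayed called in 25 of 25 alternative fits. The alternative fits reuse the libraries that chose the named identifiers, so the counts of fits here and below are a description.

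The identifier s2f_0000089004 ranked second and was counted at a lower level. CTRL libraries held 2.63, 1.92, 2.36, 2.35 and 1.97 CPM, MED libraries 2.59, 2.91, 1.39, 2.42 and 1.88 CPM, and HIGH libraries 5.89, 7.89, 6.11, 5.26 and 5.66 CPM. HIGH again did not overlap with either lower level, and the MED values lay on both sides of CTRL. The rise at HIGH was 1.45 ± 0.19 on the log2 scale (SE, n = 5 against 5), with an edgeR adjusted p of 0.00751, and it too stayed called in 25 of 25 alternative fits.

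Among the fallers, s2f_0007350014 showed the lowest p. It was uneven in the controls, with 28.5, 68.9, 56.8, 17.0 and 20.6 CPM, and at MED, with 48.4, 55.6, 18.8, 27.02 and 33.0 CPM. At HIGH it was low in every library, with 7.35, 7.28, 8.16, 4.92 and 5.21 CPM. The fall was -2.54 ± 0.39 on the log2 scale (SE, n = 5 against 5), with an edgeR adjusted p of 0.0160. It stayed called in 21 of 25 alternative fits, with adjusted p-values up to 0.0674, and the call ended without CTRL 2, CTRL 3, HIGH 1 or HIGH 2.

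The faller ranked second, s2f_0000016020, changed less, and neither MED against CTRL nor HIGH against MED passed for it (edgeR adjusted p 0.687 and 0.608). CTRL libraries held 77.0, 81.6, 75.7, 88.0 and 69.7 CPM, MED libraries 65.7, 67.9, 54.3, 59.1 and 54.6 CPM, and HIGH libraries 46.6, 45.4, 58.8, 58.7 and 45.7 CPM. All exposed libraries lay below all controls, and HIGH and MED overlapped. The edgeR log2 fold change at HIGH was -0.62 ± 0.10 (SE, n = 5 against 5) with an adjusted p of 0.0248. It stayed called in 18 of 25 alternative fits, with adjusted p-values up to 0.104, and the call ended without CTRL 1, CTRL 2, CTRL 3, CTRL 4, HIGH 1 or HIGH 2 and in a fit of HIGH and CTRL alone.

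Riser 4 was scarce outside HIGH and is given as a description. It stood at 1.31, 0.461, 0.573, 0.0671 and 0.438 CPM in CTRL, at 0.182 to 0.403 CPM in MED, and at 4.37, 8.03, 3.39, 2.08 and 8.72 CPM in HIGH. No HIGH library overlapped with another level, and the HIGH values themselves ran from 2.08 to 8.72 CPM. Its lowest library held 1 count. The level that the filter asks for, 0.663 CPM in at least 5 libraries, was reached by all 5 HIGH libraries, by 1 CTRL library and by 0 MED libraries. An identifier that enters the test through the level where it is high has to differ there, so its log2 fold change of 3.20 supports nothing by itself. Faller 3 is the mirror case, reaching that level in 3 CTRL, 4 MED and 0 HIGH libraries. The other 13 reached it in all 15 libraries.

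**Figure D2:**
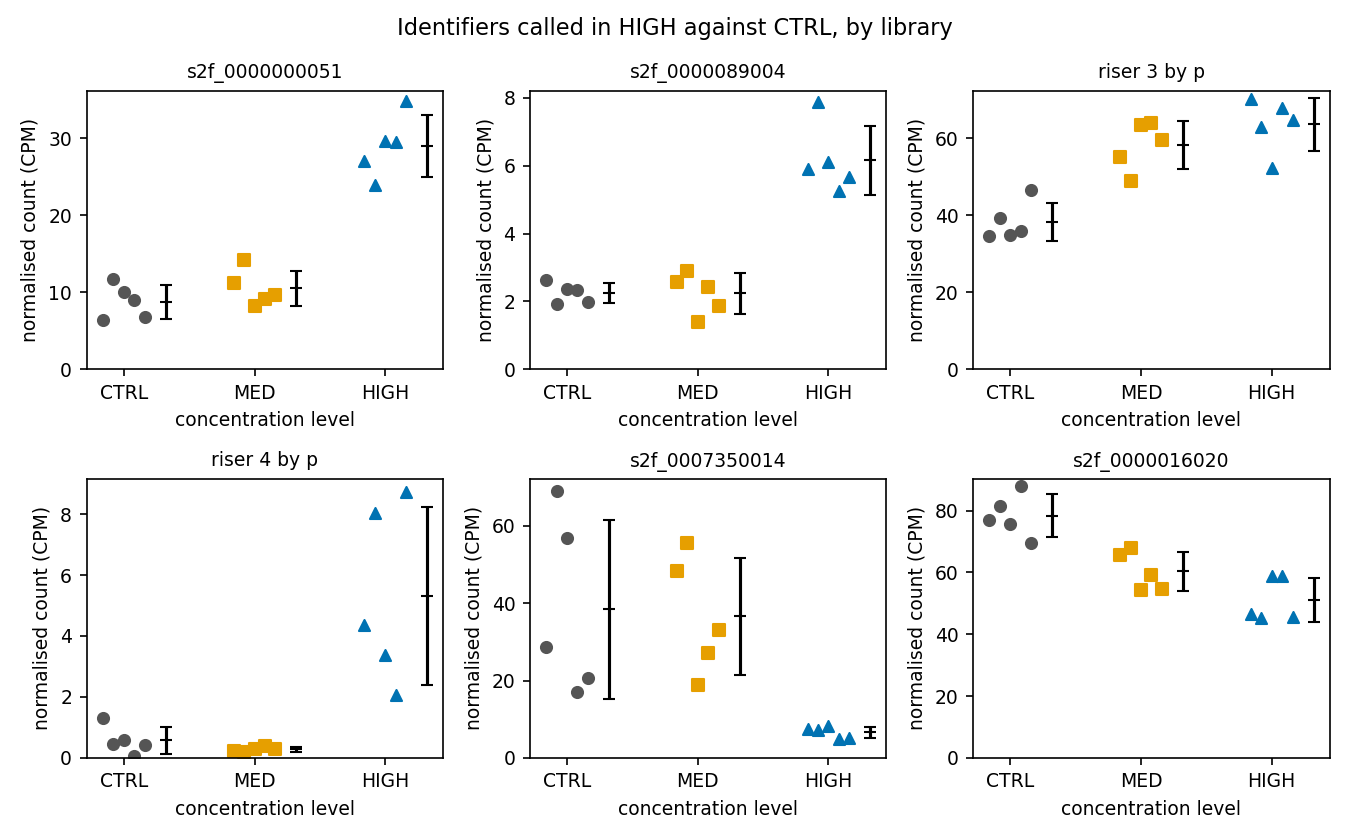
Normalised counts (CPM) in each library are plotted by level for the 4 named identifiers and for risers 3 and 4, with the mean and SD (n = 5) beside each group. The HIGH points of s2f_0000000051 start at 23.9 CPM, above the highest MED point of 14.2, and those of s2f_0007350014 end at 8.16 CPM, below the lowest CTRL point of 17.0.

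HIGH and CTRL libraries did not overlap for any of the 12 risers (1.16% of all identifiers tested were higher without overlap) or the 3 fallers (1.12% were lower). The call used the same libraries, so this describes the 15 and does not test them. Mean CTRL levels of the risers ran from 0.570 to 38.2 CPM with a median of 6.59, and mean HIGH levels from 5.32 to 63.5 CPM with a median of 26.4. Faller 3 was scarce, with 0.583 to 1.46 CPM in CTRL and 0.150 to 0.415 CPM in HIGH.

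At MED, no identifier passed against CTRL in edgeR's test (0% of 15767), where the lowest adjusted p was 0.263. At an unadjusted p under 0.05, 710 identifiers (4.50%) passed at MED with all 15 libraries, a share below the 0.05 expected where no identifier differs. Without number 5 it was 1379 of 15733 identifiers, and without number 5 and MED 4 it was 1801 of 15828. Both shares are above 0.05. Those libraries were left out after they were seen to stand apart, so these counts are a description. With all 15 libraries, DESeq2 called 23 at MED against CTRL, of which 9 were higher and 14 lower. Without MED 3, edgeR called 1. The MED and HIGH comparisons share their 5 CTRL libraries, so the values of the 15 identifiers at MED are given beside those at HIGH only as a description. Over the 12 risers the median log2 difference was 0.14 at MED and 1.48 at HIGH, and over the 3 fallers -0.27 at MED and -1.96 at HIGH. The medians of the risers take in riser 4 (-1.01 at MED and 3.20 at HIGH), which entered the test through HIGH. Both medians of the fallers are the values of faller 3, which reached the level of the filter in 0 HIGH libraries.

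The risers fell into 9 whose HIGH libraries all lay above their MED libraries (0.837% of all identifiers tested) and 3 whose MED libraries all lay above their CTRL libraries (0.393%). The 3 were risers 3, 8 and 10. Among the fallers, HIGH lay below MED without overlap for 2 of 3 (0.742%), and for s2f_0000016020 MED lay below CTRL without overlap (0.362%). The HIGH and CTRL libraries that chose the 15 enter these overlaps, which are therefore a description. In size, the MED changes of both groups of risers overlapped. Riser 7, among the 9, had 0.59 ± 0.27 and riser 8, among the 3, had 0.34 ± 0.09 (log2 ± SE). Riser 3 stood at 34.7 to 46.5 CPM in CTRL, 48.9 to 63.9 in MED and 52.2 to 70.1 in HIGH. Both exposed levels were above every control and overlapped with each other. Its log2 fold change was 0.73 ± 0.11 at HIGH (SE, edgeR adjusted p 0.0160) and 0.61 ± 0.11 at MED (SE, edgeR adjusted p 0.263). It was the only identifier called when both exposed levels were averaged and set against CTRL, with a log2 fold change of 0.67 ± 0.10 (SE, n = 10 against 5) and an edgeR adjusted p of 0.0430, 1 of 15767 (0.00634%), where 1022 (6.48%) had an unadjusted p under 0.05.

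The averaged change of riser 3 was still called without number 5 (0.75 ± 0.10 on the log2 scale, SE, edgeR adjusted p 0.0272) and without number 5 and MED 4 (0.72 ± 0.09, SE, edgeR adjusted p 0.0181). Without MED 4 alone it was 0.65 ± 0.10 (SE, edgeR adjusted p 0.0843), past the threshold no longer. Without CTRL 2, CTRL 3, MED 1, MED 3, MED 4, MED 5, HIGH 1, HIGH 2, HIGH 4 or HIGH 5 the averaged comparison called 0 identifiers, with 804 to 1493 at an unadjusted p under 0.05. Without CTRL 1 or CTRL 4 it called 1 identifier, which was not riser 3. Without number 5 it called 1 (0.00636%), without number 5 and MED 4 it called 2 (0.0126%), and DESeq2 called 32.

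**Figure D3:**
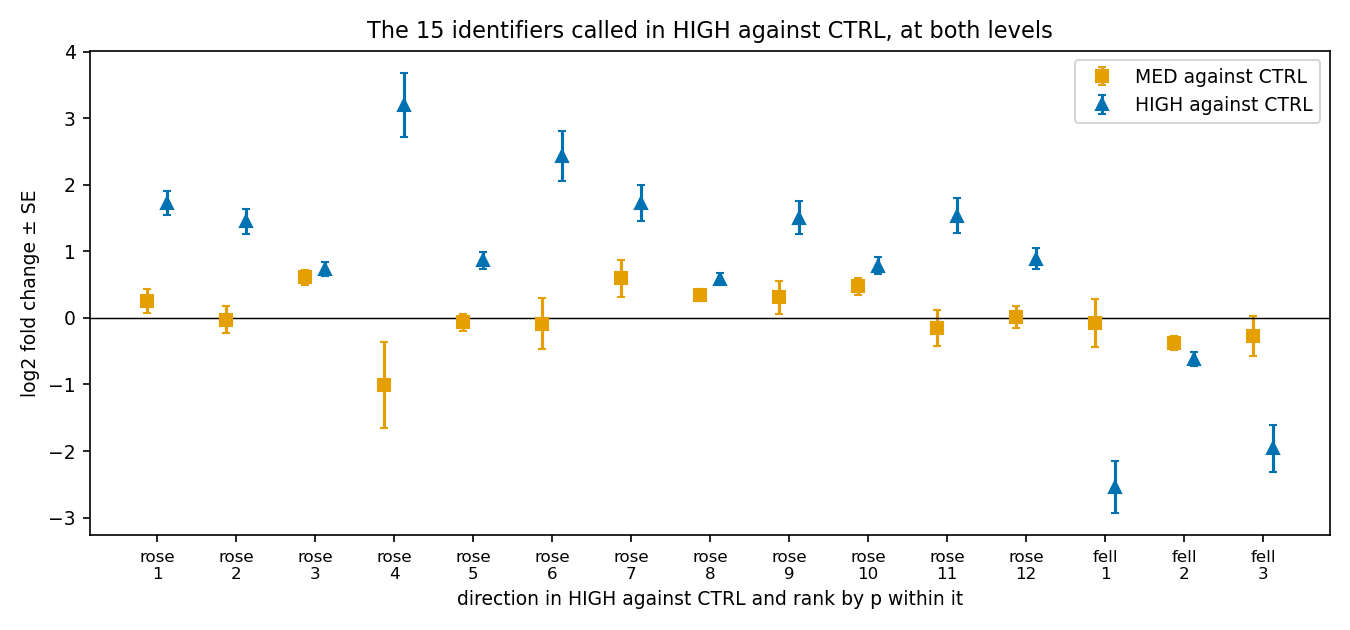
The log2 fold change and its SE in edgeR are plotted for the 15 identifiers called at HIGH, for MED and HIGH each against the same 5 CTRL libraries. The HIGH values run from 0.59 to 3.20 for the risers, while the MED values run from -1.01 to 0.61, and riser 3 has 0.73 at HIGH and 0.61 at MED. Riser 4, which entered the test through HIGH, holds the ends at 3.20 and -1.01.

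Set directly against MED, HIGH was higher for 23 identifiers and lower for 11 by edgeR's test, 34 of 15767 (0.216%, with 0.146% higher and 0.0698% lower), and 1166 (7.40%) had an unadjusted p under 0.05. The log2 differences ran from 0.54 to 4.21 for the higher ones, with a median of 0.90, and from -0.43 to -2.65 for the lower ones, with a median of -1.60. Of the 34, 28 reached the 0.663 CPM of the filter in every library. The other 6 did not, and 5 of them in no MED or in no HIGH library, among them both extremes, so their differences support nothing by themselves. Over the 28, the log2 differences ran from 0.54 to 2.53 for 21 higher identifiers, with a median of 0.89. For the 7 lower ones they ran from -0.43 to -2.47, with a median of -0.77. Of the 34, 7 higher and 1 lower identifiers were also called between HIGH and CTRL, where 0.0761% of all identifiers were called higher and 0.0190% lower. Both comparisons use the same 5 HIGH libraries, so this count is a description. Those called in both included s2f_0000000051 at 1.47 ± 0.18, s2f_0000089004 at 1.47 ± 0.19 and s2f_0007350014 at -2.47 ± 0.39 (log2 difference from MED ± SE, edgeR adjusted p 0.00268, 0.00319 and 0.0135). The last of these was called in 21 of 25 alternative fits, with adjusted p-values up to 0.0627, and its call ended without MED 1, HIGH 1, HIGH 2 or HIGH 4. The other 16 higher and 10 lower ones did not pass against CTRL.

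By sign alone, the MED value was below CTRL for 21 of the 23 higher identifiers and above it for 10 of the 11 lower ones, while the HIGH value was above CTRL for all 23 and below it for all 11. These signs come from the libraries that chose the 34. No MED difference from CTRL passed the test, 9 of the 34 were smaller than their SE, and 26 of the 34 did not pass at HIGH against CTRL either. The identifier with the lowest p of the 34 stood at 22.9, 24.4, 22.3, 21.8 and 19.5 CPM in CTRL, at 16.8, 17.7, 15.1, 15.2 and 16.6 CPM in MED, and at 35.9, 27.4, 29.7, 24.9 and 33.2 CPM in HIGH. The 3 levels did not overlap, with MED lowest and HIGH highest. Its log2 difference from CTRL was 0.45 at HIGH and -0.45 at MED, neither past the edgeR threshold (adjusted p 0.200 and 0.395). Over the 23 higher identifiers the median log2 difference from CTRL was -0.29 at MED and 0.59 at HIGH, and over the 11 lower ones 0.51 at MED and -1.01 at HIGH. These medians come from the libraries that chose the 34 and are a description. The signs and medians also take in the 6 identifiers that did not reach the level of the filter in every library. Of the 23 higher ones 21 reached it throughout, and of the 11 lower ones only 7. The medians over the 11 are therefore not the size of change among well-counted identifiers.

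Leaving out the 3 libraries numbered 5 raised the count at HIGH against CTRL from 15 to 85, with 42 higher and 43 lower (0.540% of 15733), and all 15 were still among them in the same direction. Leaving out MED 4 as well raised it to 489, with 268 higher and 221 lower (3.09% of 15828), and again all 15 remained. The median change among the calls was then smaller, at 0.44 for the higher and -0.56 for the lower on the log2 scale. MED 4 belongs to neither HIGH nor CTRL, so it enters this comparison only through the shared spread, the filter and the scaling. Without number 5, the log2 fold change was 1.57 with and without MED 4 for s2f_0000000051, and 1.43 with and without it for s2f_0000089004. HIGH against MED went from 34 to 109 calls (0.693%, with 50 higher and 59 lower, and 28 of the 34 remaining) and then to 817 (5.16%, with 381 higher and 436 lower, and all 34 remaining). Leaving out MED 4 alone gave 16 calls at HIGH against CTRL (0.101%, 14 of the 15 remaining) and 16 at HIGH against MED (0.101%, 14 of the 34 remaining). At MED against CTRL edgeR still called 0, with 1379 and then 1801 identifiers at an unadjusted p under 0.05. The libraries were left out after they were seen to stand apart, and those kept are among the libraries that chose the 15 and the 34. The calls that remained are therefore a description.

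The biological coefficient of variation, the spread between libraries beyond counting error, was 21.3% with all 15 libraries, 15.2% without number 5 and 13.1% without number 5 and MED 4. In the other 7 clawed frog tables it lay between 13.6 and 28.1%. Without number 5, the edgeR log2 fold changes at HIGH were 1.57 ± 0.18 for s2f_0000000051, 1.43 ± 0.22 for s2f_0000089004, -2.62 ± 0.42 for s2f_0007350014 and -0.62 ± 0.11 for s2f_0000016020 (SE, n = 4 against 4, adjusted p 0.00406, 0.0159, 0.0164 and 0.0205). Each differed from its value in all 15 libraries by less than its SE, in fits that share the remaining libraries. The libraries left out were chosen for standing apart, so the smaller spread is a description too.

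**Figure D4:**
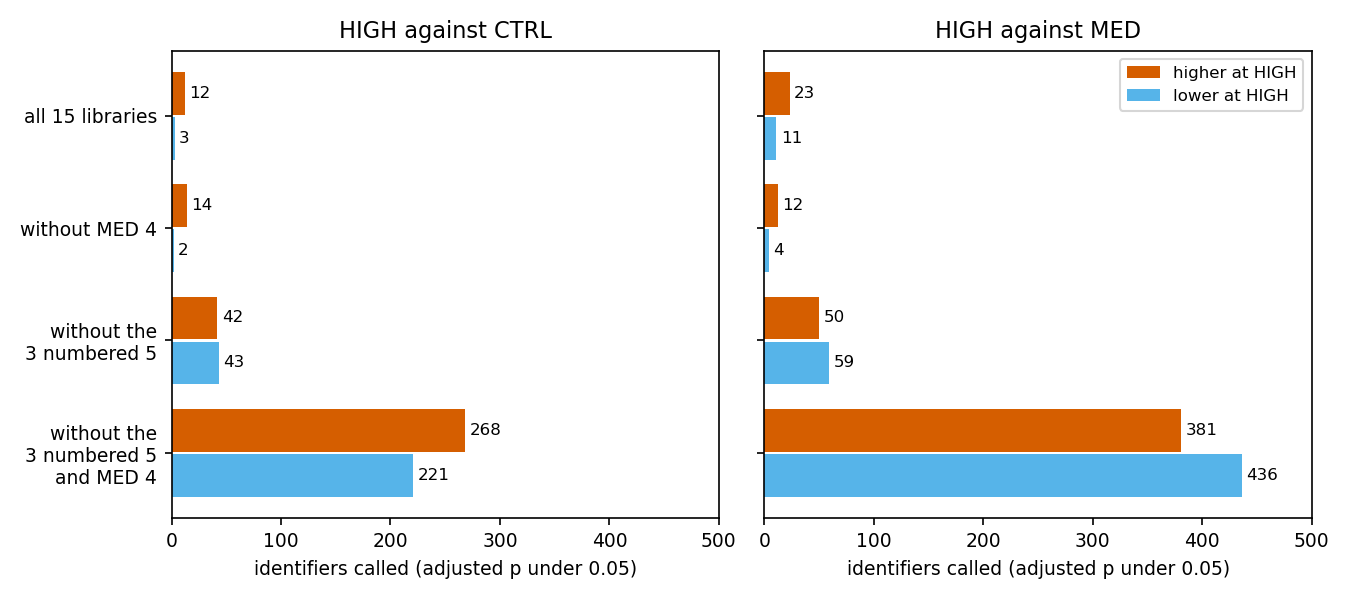
Bars give the identifiers called higher or lower (edgeR adjusted p under 0.05) in HIGH against CTRL and in HIGH against MED for 4 sets of libraries. The calls go from 12 and 3 with all libraries to 268 and 221 without the 3 libraries numbered 5 and MED 4 in the first comparison, and from 23 and 11 to 381 and 436 in the second.

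Single libraries also moved the counts. HIGH against CTRL gave 2 calls without CTRL 2, 2 without CTRL 3, 4 without HIGH 1, 2 without HIGH 2 and 32 without HIGH 5. HIGH against MED gave 5 calls without MED 1, 15 without MED 2 or without MED 3, 16 without MED 4, 6 without HIGH 1, 9 without HIGH 2, 10 without HIGH 3 or without HIGH 4 and 89 without HIGH 5. DESeq2 called 102 identifiers at HIGH against CTRL (47 higher, 55 lower) and 148 at HIGH against MED (77 higher, 71 lower), which included all 15 and all 34. An edgeR fit of the HIGH and CTRL libraries alone made fewer calls and kept only part of the 15, as given in the last section.

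The 15 identifiers were then followed through the embryos of the same species exposed to the other 7 chemicals, each table having its own CTRL libraries. These are benzo[a]pyrene (a combustion product), chlorpyrifos (an insecticide), ethinylestradiol (a synthetic oestrogen), fluoxetine (an antidepressant), hexabromocyclododecane (HBCD, a flame retardant), lead and trenbolone (a synthetic androgen). HIGH, MED and CTRL are the concentration labels. In the benzo[a]pyrene table the library titles carry M where the label is HIGH and L where it is MED, unlike the other tables, and the label was followed. Not every identifier was counted highly enough to be tested in each table. Riser 4 was not tested with chlorpyrifos, lead and trenbolone, riser 2 not with ethinylestradiol, and faller 3 with benzo[a]pyrene and HBCD alone. At HIGH in those 7 tables, 1 riser and no faller was called in the direction seen with selenomethionine, against 2 risers and 1 faller called in the other direction. For benzo[a]pyrene, where 20.1% of all identifiers tested were called at HIGH, this was 1 of the 12 risers, called lower. For HBCD, with 0.780% of identifiers called, it was 1 riser called higher, 1 riser called lower and 1 faller called higher. For lead, with 1.82% called, it was none. Chlorpyrifos, ethinylestradiol, fluoxetine and trenbolone had 0 calls at HIGH over all identifiers in edgeR, with 1295, 145, 690 and 1673 at an unadjusted p under 0.05.

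At MED, 1.64% of identifiers were called with benzo[a]pyrene, 0.317% with HBCD, 1.82% with lead, 1.68% with trenbolone, 0.00628% with fluoxetine and 0% with the other 2. The calls among the 15 were riser 6, higher with lead (as were 1.67% of identifiers), and faller 1, lower with HBCD (as were 0.108%).

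The riser called higher with HBCD at HIGH was s2f_0000000051. Its normalised level there was 15.9 to 22.7 CPM at HIGH and 5.94 to 12.1 CPM in CTRL, a log2 fold change of 0.996 ± 0.183 (SE, n = 5 against 5, edgeR adjusted p 0.0186). With the other 6 chemicals its log2 fold change at HIGH ran between -0.09 and 0.25, with no call. The lowest HIGH selenomethionine library, at 23.9 CPM, lay above the highest of the 105 libraries of the other 7 tables, at 22.7 CPM. The tables were scaled separately, so levels set across them are a description. All other risers overlapped with CTRL libraries of other tables. Riser 9, at 7.82 to 12.7 CPM in HIGH, stood at 15.9 to 45.1 CPM in the CTRL libraries of the ethinylestradiol table. The HIGH libraries of s2f_0000089004, at 5.26 to 7.89 CPM, lay within a range that reached 6.26 CPM in CTRL and 10.2 CPM in MED elsewhere. Riser 4, at 2.08 to 8.72 CPM in HIGH, overlapped too, with up to 4.37 CPM in CTRL elsewhere and 3.36 to 6.25 CPM at MED with HBCD, where it was not called.

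Faller 1, s2f_0007350014, ranged widely across the species. CTRL libraries of the other 7 tables held 4.24 to 82.7 CPM, and their medians per table ran from 9.61 to 55.1 CPM. With HBCD it fell at MED to 7.75 to 12.2 CPM (log2 fold change -2.64 ± 0.22, SE, edgeR adjusted p 4.43e-05) and rose at HIGH to 101 to 137 CPM (1.07 ± 0.20, SE, adjusted p 0.0213), from 30.3 to 81.6 CPM in CTRL. The HIGH selenomethionine libraries, at 4.92 to 8.16 CPM, thus lay within the range of unexposed embryos of other tables. Riser 3, at 52.2 to 70.1 CPM in HIGH, did so too, since CTRL libraries elsewhere held 33.1 to 93.1 CPM.

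Across chemicals the levels share only the label HIGH. The difference between the HIGH change with selenomethionine and the mean HIGH change with the other 7 chemicals was tested in 1 edgeR fit over the 8 clawed frog tables. It passed for 65 of 16514 identifiers (0.394%), with 35 higher (0.212%) and 30 lower (0.182%) with selenomethionine, and 1433 at an unadjusted p under 0.05. All 12 risers and all 3 fallers were among them. The contrast that chose the 15 enters this difference, and 3 of them were under the filter of 1 or more of the other tables, so their count and the values that follow are a description. For s2f_0000000051 the difference was 1.57 ± 0.25, for s2f_0000089004 1.72 ± 0.35, for s2f_0007350014 -2.68 ± 0.41 and for s2f_0000016020 -0.71 ± 0.13 (log2 ± SE). The count was 36 without HIGH 1, 31 without HIGH 2, 41 without HIGH 4, 35 without CTRL 2, 34 without CTRL 5 and 37 without number 5 and MED 4. It was 39 without the benzo[a]pyrene table and 107 without the ethinylestradiol table.

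**Figure D5:**
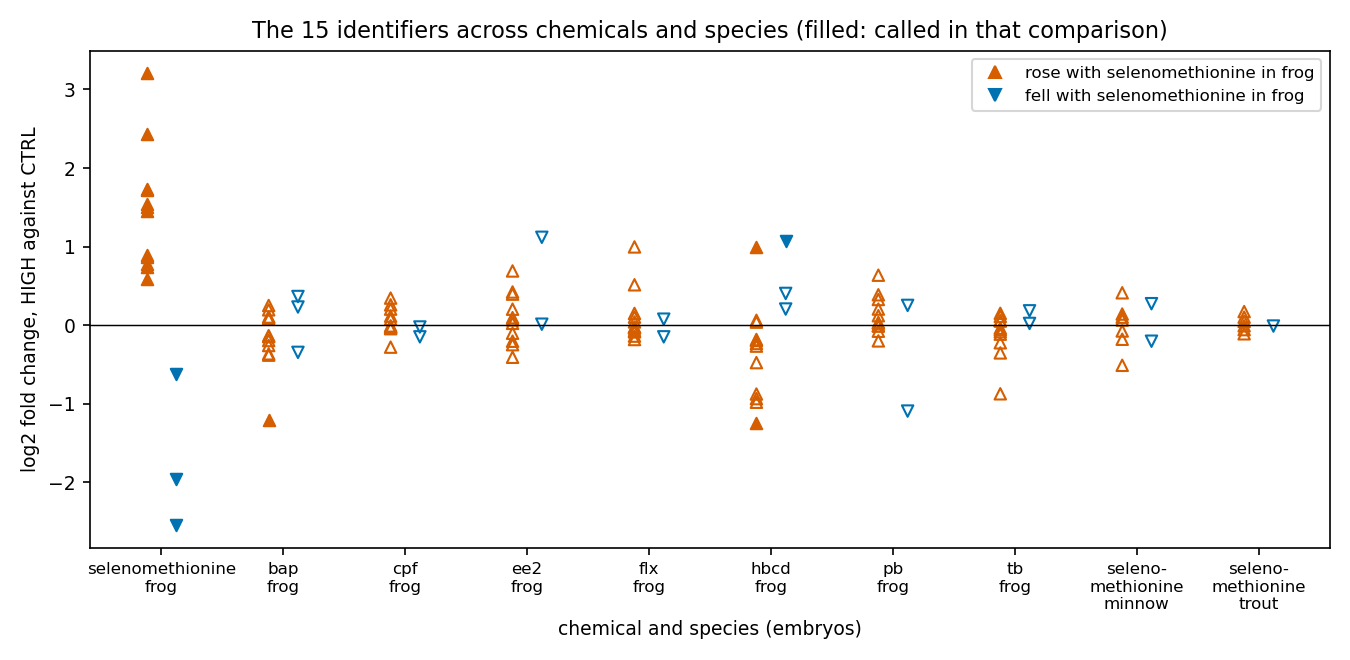
Each point is the log2 fold change at HIGH against CTRL of 1 of the 15 identifiers, in each clawed frog table and in the selenomethionine tables of minnow and trout embryos, filled where that comparison called it. Chemicals are written as in the labels (bap benzo[a]pyrene, cpf chlorpyrifos, ee2 ethinylestradiol, flx fluoxetine, pb lead, tb trenbolone). The risers lie between 0.59 and 3.20 (riser 4) in the first column and between -1.24 and 0.996 in the others.

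Selenomethionine was also given to embryos of the fathead minnow (Pimephales promelas, 4 libraries a level) and the rainbow trout (Oncorhynchus mykiss, 4 HIGH and 5 CTRL libraries), at levels that share only the label HIGH. Of the 12 frog risers, 7 were counted highly enough to be tested in minnow and 6 in trout. None was called there (0.541% of minnow and 0.404% of trout identifiers were called higher at HIGH), and their median log2 fold changes were 0.07 in minnow and 0.02 in trout. Of the 3 fallers, 2 were tested in minnow and 1 in trout, again with no call (0.131% of minnow and 0.474% of trout identifiers were called lower). The riser s2f_0000000051 stood at 1.37 to 2.67 CPM in minnow CTRL and 1.87 to 3.28 CPM in minnow HIGH, which overlapped, and at no more than 10 counts in any HIGH or CTRL trout library. The identifiers s2f_0000089004 and s2f_0007350014 were not among the identifiers of the minnow or trout tables. In the livers of adult minnows and of early-life Japanese quail (Coturnix japonica) given selenomethionine, 5 libraries a level, 6 of the 12 risers were tested in each and none was called at HIGH (0% of identifiers were called, with 394 and 747 at an unadjusted p under 0.05). The median log2 fold change of these risers at HIGH was 0.06 in adult minnow and -0.07 in quail. Of the 3 fallers, 2 were tested in adult minnow, with no call, and 0 in quail. The highest riser was s2f_0000000051 in adult minnow, at 0.69 ± 0.59, and riser 3 in quail, at 0.57 ± 0.31. Faller 3 stood at 1.91 ± 0.89 in adult minnow (all log2 fold change at HIGH ± SE, edgeR adjusted p 0.999, 0.798 and 0.999).

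The HIGH change in frog was tested against that in each fish in a joint edgeR fit. It differed from minnow for 26 of 15481 identifiers (0.168%, with 7 or 0.0452% higher and 19 or 0.123% lower in frog, and 1453 at an unadjusted p under 0.05) and from trout for 50 of 14877 (0.336%, with 38 or 0.255% higher and 12 or 0.0807% lower, and 1510 at an unadjusted p under 0.05). Among identifiers counted well in both species, 33 of 12100 (0.273%) passed against minnow, which took in 3 of 7 frog risers and 0 of 2 fallers. Against trout it was 61 of 11747 (0.519%), with 5 of 6 risers and 1 of 1 faller. The frog contrast that chose the 15 enters these differences too, so their counts and values are a description. For riser 3, among those counted in all 3 species, the frog change exceeded that in minnow by 0.92 ± 0.15 and that in trout by 0.79 ± 0.14 (log2 ± SE). Against minnow, s2f_0000000051 (1.32 ± 0.34) and risers 8, 11 and 12 did not pass (edgeR adjusted p 0.0953, 0.249, 0.0524 and 0.0861). Against trout, riser 10 did not (edgeR adjusted p 0.123). Without HIGH 5 of the frog the counts were 105 and 215, and without number 5 and MED 4 they were 408 and 511.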

How the data were processed

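The authors deposited whole-number counts per identifier, 1 table per species, stage and chemical. Frog RNA was purified with a Qiagen RNeasy Universal kit and read from both ends on an Illumina NovaSeq or HiSeq, per the labels' protocols. How reads were aligned and counted, and against which reference, is not given in the sources used here. Levels and replicate numbers come from the labels. No column of the 12 tables used lacked a labelled sample (0 left out).

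All 15 libraries entered 1 fit in R 4.3.3 with edgeR 4.0.16, after TMM scaling and a filter on low counts (filterByExpr with 10 as the minimum count and 15 as the minimum total). Changes were tested with glmQLFTest and Benjamini-Hochberg adjustment over all identifiers of a comparison. A call is an adjusted p under 0.05, two-sided. CPM values are scaled by the total and its TMM factor, and an SE is the log2 fold change divided by the square root of F. Log2 CPM for components used a prior count of 2. DESeq2 1.42.0 and limma 3.58.1 were alternatives, and scipy 1.17.1 gave the exact permutation tests, whose smallest p is 0.00794 for 5 against 5. Depth limits scarce identifiers, and totals cover counting error only.

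The named identifiers are those with the lowest p that rose (2) and that fell (2) among the calls at HIGH against CTRL. Risers 3, 4 and 9, faller 3 and the identifier with the lowest p between HIGH and MED were chosen after their values were seen and are described without a name. The comparisons and lists were chosen with earlier results of these data known. Lists of selenoproteins, methionine metabolism, stress genes and cell type markers could not be matched to the identifiers and gave no result.

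Pairs of libraries of a level differed by 5.85 to 83.2 in chi-square per degree of freedom, and no 2 columns were identical among the 121 clawed frog libraries. In the lead table, controls 3 and 3.1 (1.30 per degree of freedom) were summed into 1 library. In the ethinylestradiol table, controls 3 and 3WE4 differed by 54.0 per degree of freedom, and the other pairs of its controls by 21.1 to 168. They were kept as 2 libraries, and the labels do not say whether they share a sample. Same-numbered libraries deviated from their level means together at number 5 (correlations 0.652 to 0.672) and between -0.0959 and 0.448 at the other numbers, and 7 of 15 pairs exceeded 0.1, so the numbers were not taken as pairs.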

Additional observations from a re-analysis of the deposited data

Results flagged for a closer look

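The share of counts in the 100 most counted identifiers was 32.4% in CTRL 5, far below the other 4 controls, and 34.6% in HIGH 5, far below the other 4 HIGH libraries. These were 2 of 21 groups of 5 libraries examined, and chance flags about 1 in 20. Both are libraries numbered 5, and no other value of the named identifiers stood that far from its group.

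Changes at HIGH differed between chemicals and between species by edgeR's test of the difference itself. The number of identifiers was 65 (0.394%) for selenomethionine against the mean of the other 7 chemicals. It was 26 (0.168%) for frog against minnow and 50 (0.336%) for frog against trout. Among identifiers counted well in both species it was 33 against minnow and 61 against trout. The levels of the species, and those of the chemicals, share only the label HIGH. Among the named identifiers, the difference from the other 7 chemicals was 1.57 for s2f_0000000051, 1.72 for s2f_0000089004, -2.68 for s2f_0007350014 and -0.71 for s2f_0000016020, on the log2 scale. These identifiers were chosen by the HIGH change with selenomethionine, which is one side of the difference, so their values are a description. No difference between species is given for s2f_0000000051 in trout, whose libraries held no more than 10 counts of it.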

How the results depend on the processing

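RLE scaling, no filter, a minimum count of 50 and robust estimation kept every count of calls of the clawed frog table within 1.5 times. For HIGH against CTRL the other counts were 102 with DESeq2, 8 with only these levels in the fit, 406 with limma voom and library weights, 85 without number 5 and 489 without number 5 and MED 4, and 2 to 32 with 1 library left out. The 8 include 6 of the 15, and DESeq2 and limma voom called all 15. For HIGH against MED they were 148 with DESeq2, 410 with limma voom, 109 and 817 without the libraries that stand apart, and 5 to 89 with 1 left out. For MED against CTRL DESeq2 called 23, and leaving out 1 library gave 0 to 1. For MED and HIGH averaged they were 32 with DESeq2, 12 with limma voom, 2 without number 5 and MED 4, and 0 to 1 with 1 left out.

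The replicate block gave 87 calls (62 higher, 25 lower) at HIGH against CTRL, including all 15, and 64 at HIGH against MED, 0 at MED against CTRL and 2 for the average. In the joint fits the block gave 104 against the other 7 chemicals, 263 against minnow and 268 against trout. The labels give the numbers no meaning. Same-numbered libraries deviated together at number 5 but not at every number, and 7 of 15 libraries correlated best with a library of their own number.

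The difference from the other 7 chemicals gave 37 without number 5 and MED 4, 39 without benzo[a]pyrene, 107 without ethinylestradiol and 31 to 72 with 1 library left out. Frog against minnow gave 75 with DESeq2, 11 with HIGH and CTRL alone, 408 without number 5 and MED 4, and 18 to 105 with 1 left out. Frog against trout gave 134, 33, 511 and 40 to 215. The cause of these shifts was not tested.

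Uncalled values that changed sign were the MED log2 difference of s2f_0007350014 (0.0453 under the replicate block, -0.27 to 0.25 with 1 library left out) and of s2f_0000089004 (-0.13 to 0.11). For identifiers with a CPM of at least 1, a threshold of 10 counts turned the differences to 146 for HIGH against CTRL, 1.6 for MED against CTRL and 144.4 for HIGH against MED, and leaving out 1 library gave -56.25 to 10.5 for MED against CTRL. The share of the 100 most counted identifiers gave -0.525 to 1.74 percentage points for HIGH against MED, and the total count -114259 for MED against CTRL without number 5. Alternatives added after seeing the data were limma voom, both sets without the libraries that stand apart, and the filter in both species.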
